A study of Rattus norvegicus with 9 samples.

Results

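The Stac family comprises 3 of the 20413 genes listed for these dorsal root ganglia (DRGs): Stac (gene ID 363152), Stac2 (gene ID 363674) and Stac3 (gene ID 362895). All 3 were found by symbol in the deposited table. The family was selected on the FPKM of Stac2, which was above that in the Sham group in both the CPIP and the CPIP+EA group, so its values in these comparisons are described without a test. Stac and Stac3 were included as the other members of the family, whatever their values. FPKM counts fragments scaled for gene length and for the size of the library, so that levels can be set side by side between genes.

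Stac proteins are cytoplasmic adaptors with a cysteine-rich C1 domain and SH3 domains that bind L-type voltage-gated calcium channels. Stac3 is the skeletal muscle member: it is needed for the function of the muscle L-type channel encoded by Cacna1s, and so for the coupling of membrane excitation to calcium release through the ryanodine receptor Ryr1. Stac and Stac2 are found in neurons, including subsets of sensory neurons, and the binding of Stac proteins slows the calcium-dependent inactivation of neuronal L-type channels in expression systems.

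RNA-Seq was performed on the right (ipsilateral) L4-6 DRGs of adult male Sprague Dawley rats, with 3 libraries in each of 3 groups, all collected at day 10. Rats of the CPIP (chronic post-ischemic pain) group had an O-ring around the ankle under anesthesia, which blocked and then released the blood flow of the hind paw, a model of complex regional pain syndrome type-I. Rats of the Sham group, labelled Con, were anesthetized too and wore an opened ring, without ischemia. Rats of the CPIP+EA group had the CPIP procedure and then electroacupuncture (EA) once a day for 10 days at the ST36 and BL60 acupoints of both hind limbs. The 9 libraries include no Sham rats with EA and no CPIP rats needled without current, so that current, needling and handling cannot be told apart. CPIP rats with and without EA were compared for what EA changed, and CPIP with Sham rats for what the model changed. The CPIP+EA and Sham groups differ in both the procedure and EA. The comparisons are not independent, since both comparisons with the Sham group use the same Sham libraries, and the CPIP libraries serve as model in one comparison and as control in another.

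The libraries had summed FPKM between 445647 and 482940 and between 18279 and 18456 genes above 0. All 11 sensory neuron markers passed the filter on low values, with a summed level of 9943 to 12530 FPKM. Skeletal muscle markers (16 genes, 15 past the filter) summed to 16.41 to 195.4 FPKM, highest in CPIP replicate 2, and neutrophil markers (7 genes) to 34.75 to 640.4 FPKM, highest in CPIP+EA replicate 3. No member of the 12 marker lists for neurons and other cell types was called in any comparison. Short of a call, all 6 fibroblast markers were lower in CPIP+EA than in Sham (median log2 fold change -0.595). All 6 Schwann cell markers were lower in CPIP+EA than in CPIP (median -0.462), and all 7 neutrophil markers higher (median 0.668). The summed levels of these lists overlapped between the groups. Of 17187 genes with a mean of at least 0.1 FPKM, limma called 0.355% between CPIP and Sham, 0.0% between CPIP+EA and CPIP, and 0.483% between CPIP+EA and Sham, where a call needed an adjusted p under 0.01 and a change of 1.5-fold or more in either direction. In the same order, the FPKM ranges of the groups did not overlap for 15.9%, 8.23% and 16.2% of these genes. At an unadjusted p under 0.05, limma counted 738 genes between CPIP+EA and CPIP, where it called 0.

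Stac2, the member the selection rests on, was close to the floor in Sham DRGs and at an intermediate level in both other groups. In the Sham group it had 0.46, 0.55 and 0.24 FPKM in replicates 1, 2 and 3 (mean 0.417 ± 0.159, SD, n = 3). The CPIP libraries had 12.6, 13.22 and 14.74 FPKM (mean 13.5 ± 1.10, SD, n = 3). The CPIP+EA libraries had 17.48, 12.84 and 11.2 FPKM (mean 13.8 ± 3.26, SD, n = 3). Every CPIP and CPIP+EA library was thus above every Sham library, and the CPIP+EA libraries spread on both sides of the CPIP libraries. In these bulk samples, more cells with Stac2 RNA and more of it per cell cannot be told apart. The values do not say in which cells, or in how many, Stac2 was transcribed.

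**Figure D1:**
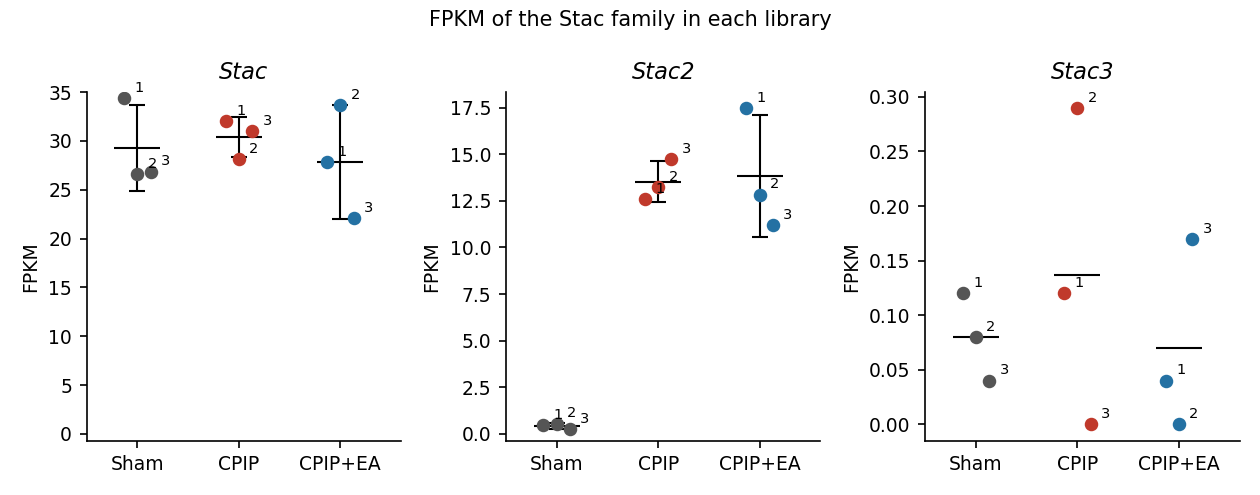
FPKM of Stac, Stac2 and Stac3 in each library of the Sham, CPIP and CPIP+EA groups, on separate linear axes. Points are libraries numbered by replicate, horizontal bars are group means, and error bars are SD (n = 3, not drawn for Stac3); Stac2 lies between 0.24 and 0.55 FPKM in Sham libraries and between 11.2 and 17.48 FPKM in the others, while the groups overlap for Stac and for Stac3.

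As a description of the selected values, mean Stac2 FPKM was 32.4 times the Sham mean in CPIP and 33.2 times in CPIP+EA. On the log2(FPKM + 0.5) scale, which understates changes of genes with low values, the differences were 3.95 and 3.96. Both placed Stac2 at rank 5 from the highest among the 17187 genes. Among all genes ordered by level within a library, Stac2 stood between ranks 14803 and 15884 in Sham libraries, between 5672 and 6266 in CPIP libraries, and between 4892 and 6863 in CPIP+EA libraries.

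The difference between CPIP+EA and CPIP was not the criterion of the selection, but the levels of both groups entered it. A gene that EA had returned to the Sham level could not have been selected. Stac2 was not called in this comparison, which is therefore not independent of the selection. The log2 fold change was 0.01 (SE 0.178), with an adjusted p of 0.998 by limma with Benjamini-Hochberg adjustment. The 95% interval ran from -0.39 to 0.41 on the log2 scale, or 0.762 to 1.33 as a fold change. Differences within these bounds remained compatible with the data of 3 libraries in each group. The order of the 2 means rested on single libraries. The log2 fold change was -0.16 without CPIP+EA replicate 1, the highest library, and 0.15 without CPIP+EA replicate 3, the lowest.

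Stac, the most abundant member, had overlapping levels in the 3 groups. The Sham libraries had 34.4, 26.64 and 26.87 FPKM (mean 29.3 ± 4.42, SD, n = 3), and the CPIP libraries 32.04, 28.11 and 31.02 FPKM (mean 30.4 ± 2.04, SD, n = 3). The CPIP+EA libraries had 27.81, 33.71 and 22.06 FPKM (mean 27.9 ± 5.83, SD, n = 3). The ranges overlapped in all 3 comparisons, and the widest spread was within the CPIP+EA group. In order of mean FPKM the groups ran CPIP, Sham, CPIP+EA, and no neighbours in this order differed beyond their spread.

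Stac was called in no comparison. Between CPIP and Sham its log2 fold change was 0.06 (SE 0.151, adjusted p = 0.973, limma), with a 95% interval of 0.822 to 1.32 as a fold change. Between CPIP+EA and CPIP it was -0.14 (adjusted p = 0.996, limma), with an interval of 0.715 to 1.15 as a fold change. Between CPIP+EA and Sham it was -0.08 (adjusted p = 0.886, limma), with an interval of 0.745 to 1.20 as a fold change. CPIP+EA replicate 3 had the lowest Stac of the 9 libraries and the lowest Stac2 of its group, and the same library had the lowest summed sensory neuron markers (9943 FPKM) and the highest summed neutrophil markers (640.4 FPKM). Without it the log2 fold change of Stac was 0.01 between CPIP+EA and CPIP and 0.07 between CPIP+EA and Sham. The part of these markers in the level of Stac was not tested.

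The make-up of the family differed between the groups in the direction that the selection of Stac2 fixes. Stac2 made up 1.32%, 2.02% and 0.884% of the summed FPKM of the 3 genes in the Sham libraries. Its share was 28.2%, 31.8% and 32.2% in the CPIP libraries and 38.6%, 27.6% and 33.5% in the CPIP+EA libraries. Stac remained above Stac2 in all 9 libraries. The ratio of Stac to Stac2 was 74.8, 48.4 and 112 in the Sham libraries. It was 2.54, 2.13 and 2.10 in the CPIP libraries and 1.59, 2.63 and 1.97 in the CPIP+EA libraries. The sum of the 3 genes was 29.8 ± 4.49 FPKM in Sham, 44.05 ± 2.16 FPKM in CPIP and 41.77 ± 7.25 FPKM in CPIP+EA (mean ± SD, n = 3 each).

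**Figure D2:**
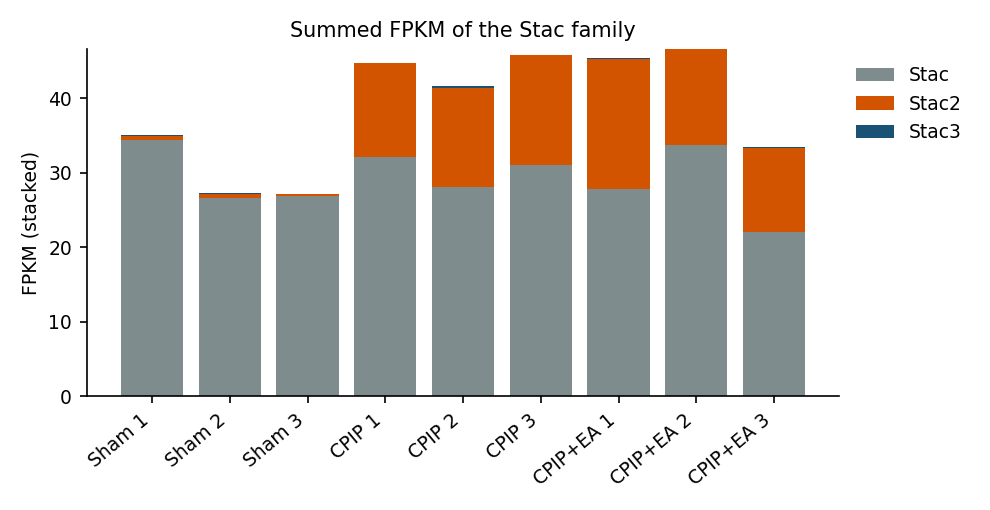
Summed FPKM of Stac, Stac2 and Stac3 in each of the 9 libraries, as stacked bars from 0. The Stac segment runs from 22.06 to 34.4 FPKM with overlap of all groups, the Stac2 segment is thin in Sham libraries and makes up 27.6% to 38.6% of the bar in the other groups, and Stac3 is barely visible.

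Stac3, the skeletal muscle member, was near 0 throughout. It had 0.12, 0.08 and 0.04 FPKM in the Sham libraries and 0.12, 0.29 and 0 FPKM in the CPIP libraries. The CPIP+EA libraries had 0.04, 0 and 0.17 FPKM. The groups overlapped, and the mean over all libraries, 0.0956 FPKM, fell below the filter of 0.1 FPKM, so that Stac3 was not tested with the other genes. Without the filter its adjusted p by limma was 0.939 for CPIP against Sham, 0.965 for CPIP+EA against CPIP, and 0.986 between CPIP+EA and Sham. All 9 values lay within 0.005 FPKM of a whole multiple, from 0 to 7, of a common step of 0.0413 to 0.0417 FPKM. At such levels a difference between groups was not detectable.

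The muscle partners of Stac3 were also low, although both passed the filter. Cacna1s, the pore-forming subunit of the skeletal muscle L-type channel, had 0.12, 0.12 and 0.05 FPKM in Sham, 0.04, 0.43 and 0.07 FPKM in CPIP, and 0.06, 0.21 and 0.13 FPKM in CPIP+EA. Ryr1, the calcium release channel that it opens in muscle, ranged from 0.12 to 0.31 FPKM over the 9 libraries. CPIP replicate 2 was the highest library for Stac3, Cacna1s and Ryr1, and also for the summed skeletal muscle markers (195.4 FPKM). CPIP+EA replicates 2 and 3 came next for these markers, with 65.54 and 63.69 FPKM, and of these only replicate 3 had Stac3 above 0. The part of muscle RNA in the Stac3 values was not tested.

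**Figure D3:**
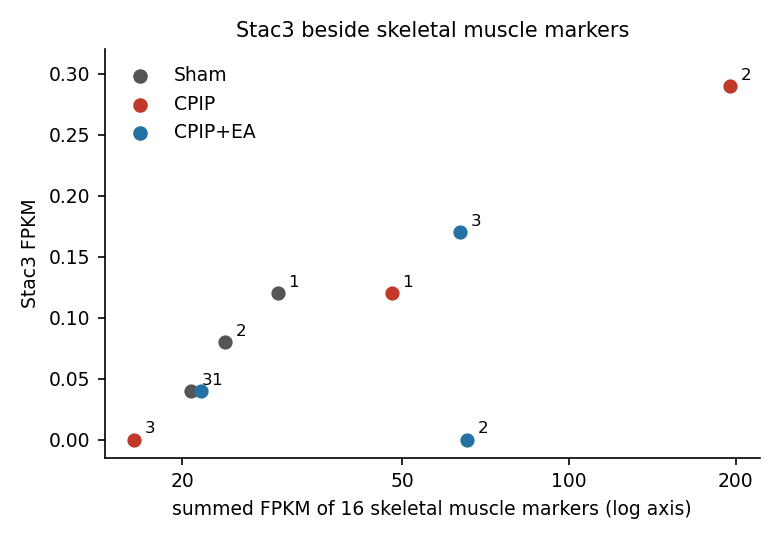
Stac3 FPKM (linear axis) against the summed FPKM of 16 skeletal muscle markers (log axis) in the 9 libraries, numbered by replicate and coloured by group. CPIP replicate 2 is highest on both axes, with 0.29 FPKM of Stac3 and 195.4 FPKM of the markers, and CPIP+EA replicate 2 is listed at 0 for Stac3 with 65.54 FPKM of the markers.

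Among the subunits of the channels to which Stac proteins bind, 1 was called in CPIP and 1 in CPIP+EA against Sham, beside 0.355% and 0.483% of all genes. In CPIP+EA against CPIP 0 were called, beside 0.0% of all genes. Of 13 genes for L-type channel subunits, 12 passed the filter, and Cacna1f, the retinal pore-forming subunit, did not. The median log2 fold change of the 12 was 0.07 in CPIP against Sham and -0.07 in CPIP+EA against CPIP, beside -0.01 and 0.01 over all genes. Cacna1c and Cacna1d encode the pore-forming subunits of the neuronal L-type channels. Cacna1c had 6.75, 6.31 and 6.61 FPKM in Sham, 8.02, 6.63 and 6.94 FPKM in CPIP, and 6.1, 5.84 and 5.49 FPKM in CPIP+EA. All CPIP+EA libraries were below all CPIP libraries, and ranges did not overlap in either direction for 8.23% of all genes. The log2 fold change was -0.28 (SE 0.089), and the difference was not called (adjusted p = 0.996, limma). Its p was the smallest of the subunits in that comparison. Cacna1d ranged from 2.62 to 3.38 FPKM and was called in no comparison. It was lower in every CPIP library (2.99 to 3.12 FPKM) than in every Sham library (3.15 to 3.38 FPKM), with a log2 fold change of -0.08 (adjusted p = 0.934, limma), and ranges did not overlap for 15.9% of all genes.

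Cacna2d1, the alpha2delta subunit that is bound by gabapentinoid drugs and serves several calcium channel types, was the 1 subunit called. It had 27.02, 28.54 and 28.12 FPKM in Sham, 69.6, 61.81 and 79.69 FPKM in CPIP, and 83.98, 84.24 and 64.93 FPKM in CPIP+EA. Every library of the CPIP and CPIP+EA groups was above every Sham library. It rose by a log2 fold change of 1.31 (SE 0.117, adjusted p = 0.00108, limma) in CPIP and of 1.45 (adjusted p = 0.000456, limma) in CPIP+EA over Sham. With the replicate number added to the fit as a block, the call in CPIP was lost (adjusted p = 0.0127, limma). CPIP+EA differed from CPIP by a log2 fold change of 0.14 (adjusted p = 0.996, limma). The related Cacna2d3 had a log2 fold change of -0.29 between CPIP and Sham and was not called (adjusted p = 0.445, limma). Cacnb3, the most abundant of the subunits, stood between 86.32 and 114.27 FPKM and was not called either.

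**Figure D4:**
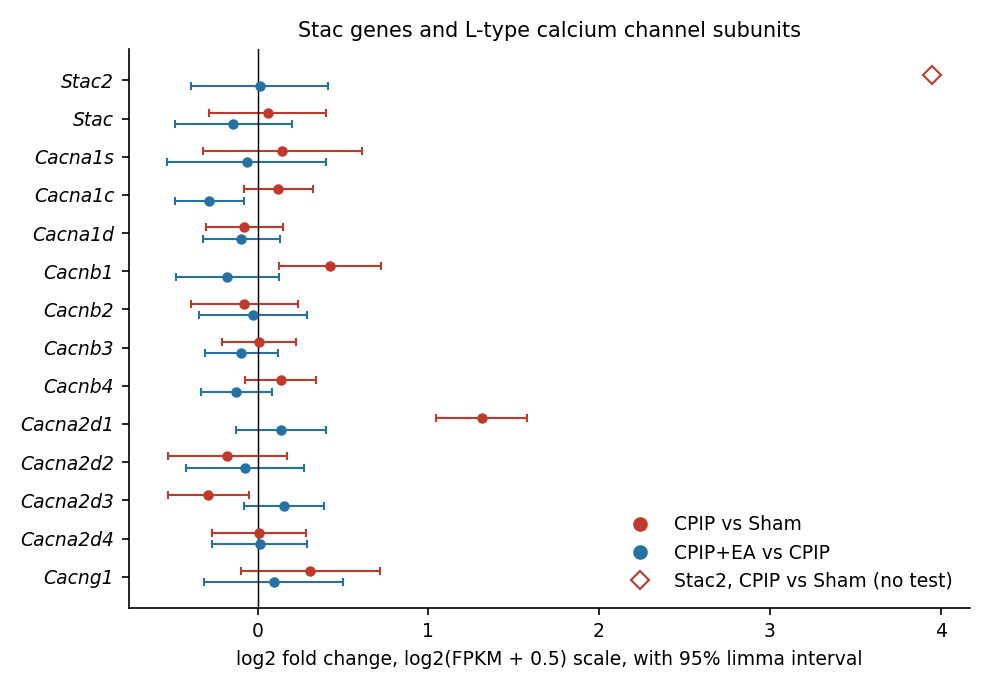
Log2 fold change on the log2(FPKM + 0.5) scale of Stac2, Stac and 12 L-type channel subunits for CPIP against Sham (red) and for CPIP+EA against CPIP (blue), with 95% limma intervals. The open diamond is the untested difference of Stac2 (3.95), and Cacna2d1 (1.31) is the 1 subunit called between CPIP and Sham, while none was called between CPIP+EA and CPIP.

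Of 16 regulators of these channels, among them calmodulins, CaM kinases and RGK GTPases, 15 passed the filter, and Cabp5 did not. None was called in CPIP against Sham or in CPIP+EA against CPIP, beside 0.355% and 0.0% of all genes, so the 0 is no result about the regulators. Camk2d, a calcium/calmodulin-dependent kinase subunit, had 29.49, 31.48 and 29.75 FPKM in Sham, 42.82, 42.26 and 47.12 FPKM in CPIP, and 45.48, 47.31 and 44.78 FPKM in CPIP+EA. It rose in CPIP+EA over Sham by a log2 fold change of 0.59 (adjusted p = 0.00155, limma). In CPIP its log2 fold change of 0.54 had an adjusted p of 0.00355 by limma but a fold under 1.5. The call in CPIP+EA was lost without Sham replicate 1 (adjusted p = 0.0101), without Sham replicate 3 (0.0109) or without CPIP+EA replicate 2 (0.0139), all by limma. It was also lost with the replicate number as a block (adjusted p = 0.0119, limma). The fold of Camk2d was under 1.5 on the TPM scale (log2 fold change 0.568) and with quantile normalization (0.571). The RGK GTPases, which inhibit high-voltage-activated calcium channels, were named after their values were seen. Rem2 had a log2 fold change of -0.86 in CPIP against Sham (adjusted p = 0.0358, limma), short of the threshold. Over the 18 alternatives its adjusted p by limma ran from 0.00977 to 0.137, and it passed in 1 of them, which left out CPIP+EA replicate 3, a library of neither group. Rrad had a log2 fold change in the other direction, 0.96 (adjusted p = 0.164, limma), with 0.46 to 1.44 FPKM in Sham and 1.74 to 2.51 FPKM in CPIP. Gem and Rem1 had log2 fold changes of 0.07 each (adjusted p = 0.968 and 0.969, limma). Camk2a had the smallest p of the regulators between CPIP+EA and CPIP, with a log2 fold change of -0.31 (adjusted p = 0.996, limma). CPIP+EA replicate 3 was its lowest library, at 13.76 FPKM beside 21.44 to 26.66 FPKM in the other libraries.

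All 18 proteins of excitation-contraction coupling, such as ryanodine receptors, junctophilins and calsequestrins, passed the filter and none was called in any comparison. Hrc, a calcium-binding protein of the sarcoplasmic reticulum, had the smallest p of them between CPIP and Sham (log2 fold change 0.34, adjusted p = 0.449, limma) and between CPIP+EA and CPIP (log2 fold change -0.24, adjusted p = 0.996, limma). Jph3, a neuronal junctophilin, had it between CPIP+EA and Sham (log2 fold change -0.25, adjusted p = 0.353, limma). Over the 3 lists together, 45 genes were tested. Of these 1 (2.22%) was called between CPIP and Sham, 0 between CPIP+EA and CPIP, and 2 (4.44%) between CPIP+EA and Sham, beside 0.355%, 0.0% and 0.483% of all genes. At an unadjusted p under 0.05, limma counted 8, 1 and 7 of the 45. Over all 17187 genes it counted 1489, 738 and 2100 (8.66%, 4.29% and 12.2%). Their FPKM ranges did not overlap for 26.7%, 2.22% and 15.6%, beside 15.9%, 8.23% and 16.2% of all genes.

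The genes whose levels moved across the 9 libraries most like Stac2 were Hamp, Atf3, Vip, Reg3b and Gal. Likeness was the mean over the 9 libraries of the absolute difference in log2(FPKM + 0.5), each gene taken relative to its own Sham mean, and was 0.291 for Hamp, 0.471 for Atf3, 0.508 for Vip, 0.573 for Reg3b and 0.614 for Gal. The measure uses the same libraries as the selection of Stac2 and is a description. Hamp encodes the iron-regulating peptide hepcidin, Atf3 a transcription factor induced in injured sensory neurons, Vip and Gal neuropeptides, and Reg3b a secreted lectin. Hamp was listed at 0, 0.18 and 0 FPKM in Sham, at 9.21, 13.15 and 11.09 FPKM in CPIP, and at 10.05, 11.92 and 7.65 FPKM in CPIP+EA. Atf3 had 4.77, 6.86 and 5.37 FPKM in Sham, 55.88, 50.51 and 61.58 FPKM in CPIP, and 72.86, 74.87 and 57.37 FPKM in CPIP+EA. The CPIP and CPIP+EA ranges overlapped for Hamp, Atf3, Vip and Reg3b, as they did for Stac2. The choice by likeness to Stac2 favoured such overlap. Gal was higher in every CPIP+EA library (52.86 to 62.97 FPKM) than in every CPIP library (37.03 to 48.14 FPKM). In that comparison ranges did not overlap, in either direction, for 8.23% of all genes. Going from CPIP to CPIP+EA, the genes ran from a log2 fold change of -0.37 (Reg3b) to 0.48 (Gal). They were chosen for likeness to Stac2, whose own log2 fold change was 0.01, so the choice favoured small differences. None was called, beside 0.0% of all genes, and nothing is read from this.

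**Figure D5:**
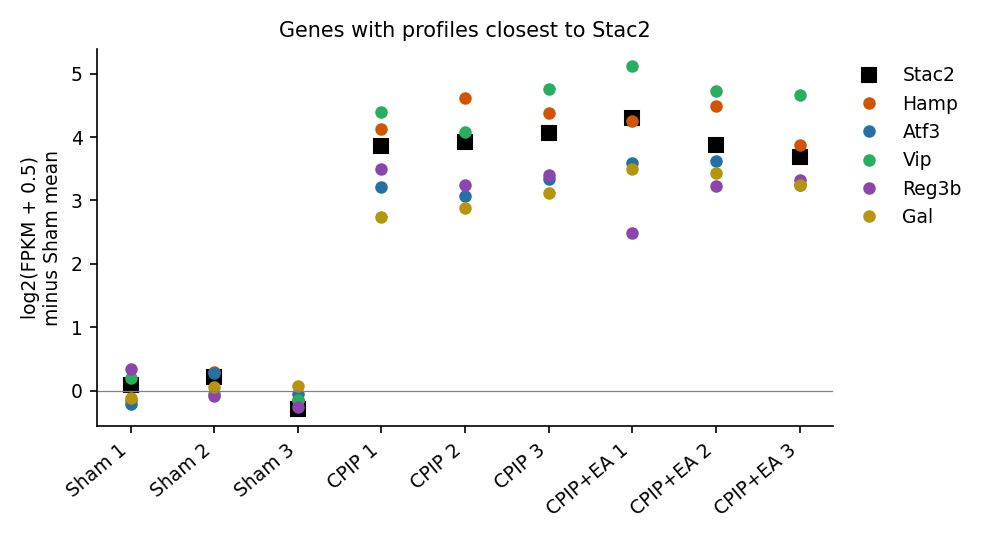
Log2(FPKM + 0.5) minus the gene's own Sham mean in each of the 9 libraries, for Stac2 (black squares) and the 5 genes closest to it by mean absolute difference (coloured points). All 6 genes lie near 0 in the Sham libraries and above 2 in each CPIP and CPIP+EA library, with Hamp (mean absolute difference 0.291) closest to Stac2.

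A list of 14 genes of the axon injury response, drawn up with earlier results of these data known, had 13 members called higher in CPIP and 13 in CPIP+EA over Sham, and 0 between CPIP+EA and CPIP, beside 0.355%, 0.483% and 0.0% of all genes. Since the list was drawn up with these results known, nothing is read from its counts. Bdnf was the member not called in either comparison with Sham. Their median log2 fold change was 1.76 and 1.88 over Sham and 0.07 between CPIP+EA and CPIP. The summed level of 5 peptidergic markers was 1050 to 1381 FPKM in Sham, 921.1 to 1218 FPKM in CPIP and 952.7 to 1245 FPKM in CPIP+EA. That of 4 nonpeptidergic markers was 210.2 to 227.8, 194.3 to 221.8 and 159.9 to 237.2 FPKM, in the same order. That of 5 large-fiber markers was 1361 to 1716, 1259 to 1368 and 1203 to 1355 FPKM. Every CPIP+EA sum was below every Sham sum, but narrowly (1355 against 1361 FPKM). Nefh made up most of this sum (867.79 to 1390.46 FPKM over the 9 libraries). None of the 5 genes had non-overlapping ranges between CPIP+EA and Sham. In CPIP against Sham, non-overlapping ranges were found for 2 of the 5 peptidergic, 0 of 4 nonpeptidergic, 2 of 5 large-fiber and 6 of 11 general sensory neuron markers, beside 15.9% of all genes. All were lower in CPIP except 2 of the 6, Tubb3 and Prph, which were higher. In CPIP+EA against Sham they were found for 0, 1, 0 and 4, beside 16.2% of all genes, again lower except Tubb3 and Prph.

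In the RefSeq annotation of the rat assembly GRCr8, used for gene order, Stac2 lies between Arl5c, Cacnb1 and Rpl19 on one side and Fbxl20, Med1 and Cdk12 on the other. Their log2 fold changes between CPIP and Sham ranged from -0.25 for Arl5c to 0.43 for Cacnb1, and none was called. Cacnb1, which is at the same time an L-type channel beta subunit, had 15.73, 13.87 and 13.78 FPKM in Sham, 18.04, 19.83 and 20.95 FPKM in CPIP, and 20.05, 18.69 and 13.68 FPKM in CPIP+EA. All CPIP libraries were above all Sham libraries, and the adjusted p was 0.317 (limma); the ranges did not overlap, in either direction, for 15.9% of all genes. The neighbours of Stac were Epm2aip1, Trank1, Dclk3, Arpp21, Pdcd6ip and Clasp2, and those of Stac3 were Inhbe, Inhbc, R3hdm2, Ndufa4l2, Shmt2 and Nxph4. Of the 18 neighbours 16 were tested, all but Inhbe and Inhbc, and 0 were called in any comparison, beside 0.355%, 0.0% and 0.483% of all genes, so the 0 is no result about the neighbours.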

How the data were processed

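RNA-Seq libraries of ipsilateral DRGs from 3 rats in each of the Sham, CPIP and CPIP+EA groups were analysed. Reads were filtered by the authors with SOAPnuke, and the deposited unit is FPKM, given to 2 decimals for each gene in each library. The aligner and genome build are not given in the sources used here. The 9 deposited columns of the authors' comparisons (log2 ratios, P-values and Q-values of 3 pairs of groups) were not used. The number of reads per gene is unknown from FPKM, so no counting interval was given, and 3 libraries per group limit the precision. No pair of libraries held identical values.

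Log2(FPKM + 0.5) was fitted with limma 3.58.1 in R 4.3.3 (all 9 libraries, mean-variance trend, two-sided), for 17187 genes with a mean of at least 0.1 FPKM. P-values were adjusted by the Benjamini-Hochberg method over these genes. Intervals are 95% limma intervals. The fit was tested on simulated data. Neighbouring genes came from RefSeq GRCr8, in which 18746 gene IDs (91.8%) were found. Tables and figures were made with Python 3.11.15, pandas 2.3.3, numpy 2.4.6 and matplotlib 3.10.9.

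The family and the 16 gene lists were chosen with earlier results of these data known. Genes named were the 3 members, Cacna1s, Cacna1c, Cacna1d, Ryr1, each channel-list gene called or with its list's smallest p, the 5 profiles closest to Stac2, and 3 neighbours on each side. Cacnb3, Cacna2d3, Cacna1f, Cabp5, Rem2, Rrad, Gem, Rem1, Tubb3, Prph, Nefh and Bdnf were named after their values were seen. Alternatives were the pseudocount, the filter, TPM scaling, quantile normalization, no trend, 2 groups only, a replicate block and leaving out each library.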

Additional observations from a re-analysis of the deposited data

How the results depend on the processing

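The 18 alternatives called Stac in no comparison and Stac2 never between CPIP+EA and CPIP. Their log2 fold changes were near 0 and changed sign when single libraries were left out: from -0.003 to 0.18 for Stac between CPIP and Sham, from -0.29 to 0.013 between CPIP+EA and CPIP, and from -0.23 to 0.072 between CPIP+EA and Sham, and from -0.16 to 0.15 for Stac2 between CPIP+EA and CPIP. On the TPM scale the last was -0.008. The log2 difference of Stac2 from Sham depended on the pseudocount, since its Sham values are low: in CPIP it was 4.77 with a pseudocount of 0.1, 3.36 with 1 and 4.43 on the TPM scale, and in CPIP+EA 4.78, 3.37 and 4.42. That of Stac3 between CPIP+EA and CPIP was -0.39 with a pseudocount of 0.1. Stac3 has no value under the alternatives that keep the filter and were run only for genes past it (quantile normalization, no trend, 2 groups only and replicate block), nor with a mean of at least 1 FPKM.

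Of the 45 channel-list genes, leaving out single libraries left 1 to 2 called in CPIP (2, with Rem2, without CPIP+EA replicate 3) and 1 to 2 in CPIP+EA over Sham. The TPM scale and quantile normalization each left 1 in CPIP+EA, without Camk2d. Same-numbered libraries showed no clear shared deviation (correlations -0.236 to 0.297, over 0.1 in 2 of 9 pairs, and 2 of 9 libraries closest to their own number). With 3 libraries per group this cannot exclude a shared batch, and the labels give only a replicate number. The replicate block left 0 channel-list genes called in CPIP (Cacna2d1, adjusted p = 0.0127, limma) and 1 in CPIP+EA over Sham (Camk2d lost, adjusted p = 0.0119, limma), and 26 and 42 of all genes, beside 61 and 83. Of all genes, 40 and 55 were called without the filter, 42 and 46 with 2 groups only, and 28 to 61 and 35 to 82 with single libraries left out, the lowest being without CPIP replicate 3 in the former and CPIP+EA replicate 2 in the latter. Between CPIP+EA and CPIP, 0 to 2 were called. With 3 libraries per group, Stac2 differences inside 0.762 to 1.33 as a fold change were not detectable.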
